A study of Homo sapiens with 6 samples.

Results

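The enzymes that write and erase histone acetylation, and the proteins that read it, are themselves encoded by genes whose promoters carry acetylated histones. Of the 24131 annotated genes examined, 9 such genes are described: the acetyltransferases EP300, CREBBP, KAT2A and KAT2B, the bromodomain reader BRD2, and the deacetylases HDAC1, HDAC2, HDAC3 and SIRT1. For each gene, the enriched regions overlapping 1 kb on either side of any GENCODE transcription start site (TSS) on hg19 were collected from the 4 deposited lists. The rule uses gene names only, and no measured value enters it.

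HSC3, an established human oral squamous cell carcinoma (OSCC) line grown in RPMI with serum, was transfected with a control siRNA (siCONT) or with an siRNA against the long noncoding RNA DLEU1 (siDLEU1), and chromatin was immunoprecipitated 72 h later. Acetylated lysine 27 of histone H3 (H3K27ac) and trimethylated lysine 4 (H3K4me3) were sequenced on an Ion Proton, with 1 library for each siRNA and mark. All 4 libraries come from the same line, and siDLEU1 stands for a single siRNA sequence, so an effect of that sequence on other RNAs and an effect of losing DLEU1 cannot be told apart. An siRNA acts on RNA, and these lists hold no check of the depletion.

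With 1 library per group no test between siRNAs can be made, and no p-value is given. The lists held 19705 H3K27ac regions in siCONT cells and 17672 in siDLEU1 cells, and 58582 and 56943 H3K4me3 regions. Read totals recovered from the lists lay between 21.5 and 29.4 M. HSC3 chromatin carried the marks of its labelled origin: 10 of 10 squamous epithelial genes had an H3K27ac region at a TSS in both lists, against 0 of 4 leukocyte, 0 of 3 endothelial and 0 of 4 fibroblast and muscle genes.

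Acetylation of histone tails loosens their contact with DNA and is bound by bromodomains, and H3K27ac marks active promoters and enhancers while H3K4me3 marks active and poised promoters. EP300 (p300) and CREBBP (CBP) are paralogous acetyltransferases that place H3K27ac at enhancers and promoters. KAT2A (GCN5) and KAT2B (PCAF) are a second paralogous pair, which work in SAGA and ATAC complexes and mainly acetylate lysine 9 of H3. BRD2 is a member of the BET family, whose bromodomains couple acetylated histones to transcription. HDAC1 and HDAC2 are the catalytic subunits of the SIN3, NuRD and CoREST complexes, HDAC3 is that of a nuclear receptor corepressor complex, and SIRT1 is a deacetylase that depends on NAD.

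Among these genes CREBBP, KAT2A and KAT2B had the largest changes in H3K4me3 rank. Summit fragments of H3K4me3 at SIRT1, scaled to reads, were lower upstream of the start and higher downstream. The promoters of these 4 genes are therefore shown. Each is the 250 bases upstream of the canonical TSS in GRCh37, written 5′ to 3′ on the gene's strand, with GGGCGG (the GC box bound by SP and KLF factors) and CACGTG (the E-box) in capitals on either strand. They lie at chr16:3930715-3930964 on the minus strand for CREBBP, chr17:40273386-40273635 on the minus strand for KAT2A, chr3:20081688-20081937 on the plus strand for KAT2B and chr10:69644164-69644413 on the plus strand for SIRT1.
CREBBP: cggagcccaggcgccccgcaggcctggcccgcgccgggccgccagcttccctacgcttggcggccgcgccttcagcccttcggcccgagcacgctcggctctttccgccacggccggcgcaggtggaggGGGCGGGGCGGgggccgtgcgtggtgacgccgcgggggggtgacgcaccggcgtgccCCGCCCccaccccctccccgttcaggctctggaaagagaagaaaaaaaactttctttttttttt
KAT2A: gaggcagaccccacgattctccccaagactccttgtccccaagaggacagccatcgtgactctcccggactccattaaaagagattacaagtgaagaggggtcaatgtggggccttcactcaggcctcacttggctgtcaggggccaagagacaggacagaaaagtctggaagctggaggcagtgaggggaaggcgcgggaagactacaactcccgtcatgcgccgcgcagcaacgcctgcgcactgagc
KAT2B: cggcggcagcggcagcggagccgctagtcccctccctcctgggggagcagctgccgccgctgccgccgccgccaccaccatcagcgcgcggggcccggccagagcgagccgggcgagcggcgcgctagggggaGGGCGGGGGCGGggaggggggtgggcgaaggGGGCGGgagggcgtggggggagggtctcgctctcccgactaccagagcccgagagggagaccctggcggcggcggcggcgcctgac
SIRT1: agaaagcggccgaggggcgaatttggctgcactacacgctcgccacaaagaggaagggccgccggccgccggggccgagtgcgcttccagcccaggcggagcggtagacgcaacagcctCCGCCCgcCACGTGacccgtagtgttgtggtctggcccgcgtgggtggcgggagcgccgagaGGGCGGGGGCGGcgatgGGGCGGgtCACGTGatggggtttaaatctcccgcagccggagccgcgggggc

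KAT2A stood apart in sequence. Its promoter had 58.8% G and C and 11 CpG dinucleotides, the lowest of the 9 genes, and an observed over expected CpG ratio of 0.509. The other 8 had ratios of at least 0.6, up to 1.02 at SIRT1, and the median of the 9 genes was 0.796. Among 24015 promoters of the same length, 59.3% reached 0.6, and among those of genes with an H3K27ac region in siCONT cells 84.7% did. The promoter of KAT2B was the richest in G and C, at 80.8%.

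GGGCGG occurred in 6 of the 9 promoters (CREBBP, KAT2B, BRD2, HDAC1, HDAC3 and SIRT1), against 53.4% of all promoters and 71.4% of those with H3K27ac. SIRT1 held 4 GC boxes and 2 E-boxes, which start 123 and 44 bases upstream of the TSS, and CACGTG occurred in 7.44% of all promoters. CCAAT was found in HDAC1 alone, 78 bases upstream, against 33.8% of all promoters. CCGGAAG (ETS, 10.6% of all promoters), TGACGTCA (CRE, 2.2%), AAGATGGC (YY1, 1.33%), TGANTCA (AP-1, 5.52%) and the NRF1 motif (1.31%) were in none of the 9 windows. Neither were TTCNNNGAA (GAS) and the interferon-stimulated response element (ISRE), the binding motifs of interferon signalling, which 5.96% and 2.91% of all promoters held. Overlapping sites were counted separately, and the absence of a motif says only that these letters are not in these 250 bases.

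All 9 genes had an H3K27ac region and an H3K4me3 region at a TSS in both siCONT and siDLEU1 cells. Over all 24131 genes, 56.3% had an H3K27ac region in siCONT cells and 53.3% in siDLEU1 cells, and 56.6% and 56.4% had an H3K4me3 region. Of the genes with H3K27ac in siCONT cells, 5.62% had lost it in siDLEU1 cells, and 3.24% had lost H3K4me3.

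**Figure D1:**
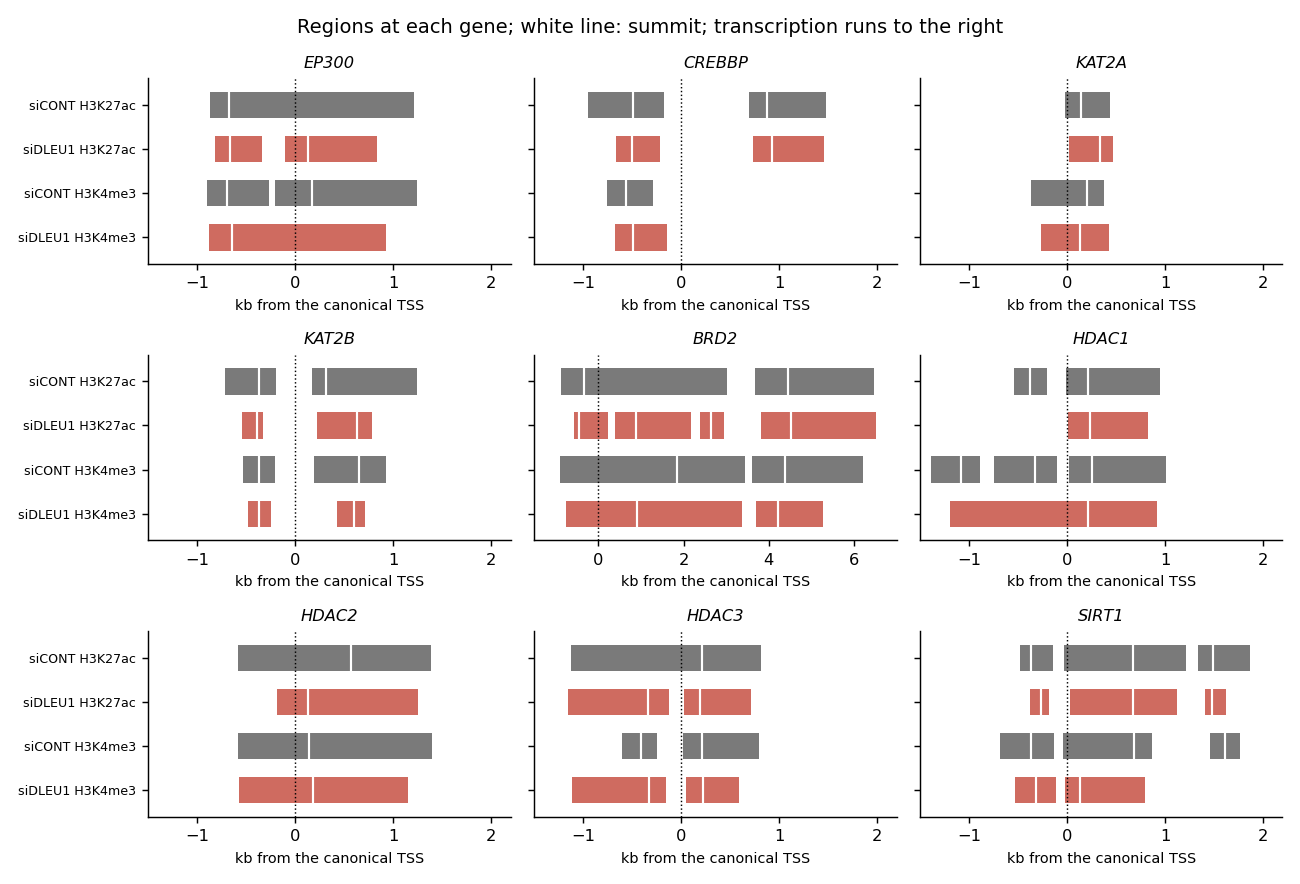
Enriched regions at the 9 genes, drawn as boxes against distance in kb from the canonical TSS (dotted line), with a row for each siRNA and mark and a white line at each summit; the BRD2 panel has a longer axis, and 1 H3K4me3 region of KAT2A and 1 of HDAC1 beyond the axis are not drawn. In siDLEU1 cells the single H3K27ac boxes of EP300, BRD2 and HDAC3 are broken into pieces, while the H3K4me3 boxes of EP300 and HDAC1 are joined.

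Strength was measured in 2 ways. Fold enrichment, as MACS2 reports it, compares fragments at the summit of a region with a local background and is scaled to each library. The strongest region of each gene was therefore given as a percentile rank within its own list, from 0 for no region to 100 for the top of the list, and a change of at least 10 points was counted. The number of fragments at each summit was also recovered from the fold enrichment and p-value, and is given as fragments per 1000000 reads (FPM) with a 95% interval. These intervals cover counting error only, and amplified copies are not independent molecules. A ratio compares the summits of 2 regions, which need not lie at the same place.

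In FPM, H3K27ac was lower in siDLEU1 cells at all 9 genes. The ratio of siDLEU1 to siCONT ranged from 0.504 at KAT2B to 0.612 at HDAC2, with a median of 0.551. This was the behaviour of the whole list, where 99.1% of genes were lower and the median ratio was 0.579. Relative to the ratio of the median gene, 0 members lay at or below 0.67 (1.84% of all genes) and 0 at or above 1.5 (2.74%). No interval of a member's ratio reached 1, and once each ratio was divided by that of the median gene all 9 intervals included 1. Less acetylation per cell and a smaller share of reads in enriched regions cannot be told apart in these lists. For H3K4me3 the ratios ran from 0.487 at KAT2B to 1.86 at CREBBP, with a median of 1.04 against 1.16 over all genes. Of the members 3 were lower and 6 higher, and 27.8% of all genes were lower. KAT2B alone lay at or below 0.67 times the median gene (7.79% of all genes), and CREBBP alone at or above 1.5 times (5.8%).

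**Figure D2:**
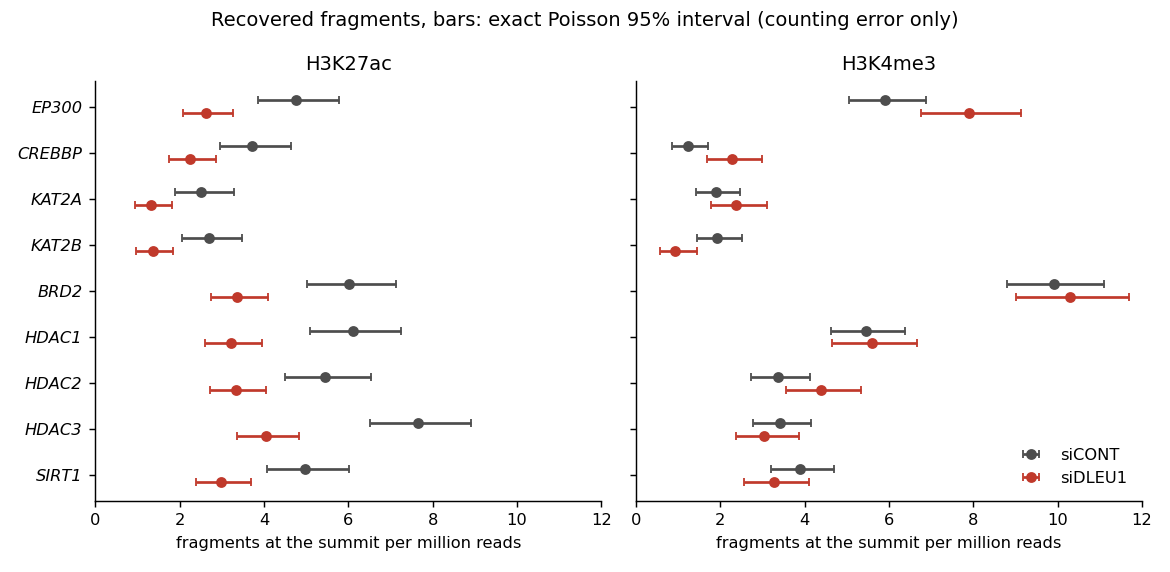
Fragments at the summit of the strongest region in FPM (linear axis from 0) for each gene, in siCONT (grey) and siDLEU1 cells (red), for H3K27ac on the left and H3K4me3 on the right; bars are exact Poisson 95% intervals. Every red H3K27ac point lies left of its grey point, with KAT2B falling from 2.7 to 1.36 and HDAC3 from 7.64 to 4.05, whereas for H3K4me3 CREBBP rises from 1.23 to 2.29 and KAT2B falls from 1.93 to 0.941.

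The order of the genes was largely kept. By the strongest region of each gene, H3K27ac in siCONT cells was highest at HDAC3, with 7.64 FPM, then at HDAC1, BRD2, HDAC2, SIRT1, EP300 and CREBBP, and lowest at KAT2B and KAT2A, with 2.7 and 2.51. A second region of BRD2, lower in fold enrichment, had 7.68 FPM there. The same genes stood at the top and bottom in siDLEU1 cells, with HDAC3 at 4.05, KAT2B at 1.36 and KAT2A at 1.33. Intervals of neighbours in this order overlapped in both libraries. For H3K4me3, BRD2 came first at 9.92 and 10.3 FPM, and EP300 and HDAC1 followed. The interval of BRD2 lay above all others in siCONT cells (8.79 to 11.1) and met that of EP300 in siDLEU1 cells (9.02 to 11.7 and 6.76 to 9.14). KAT2B, KAT2A and CREBBP closed the order in siCONT cells with overlapping intervals, and in siDLEU1 cells KAT2B was the lowest, with an interval of 0.582 to 1.44 that did not reach those of KAT2A (1.78 to 3.11) and CREBBP (1.7 to 3.0).

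By percentile rank of fold enrichment, the H3K27ac region of 1 member, KAT2B, was lower by at least 10 points in siDLEU1 cells, and those of 2, EP300 and HDAC2, were higher. Over the 13626 genes with a region in either list, 36.8% were lower and 16.8% higher. The median change was -3.33 points for the members and -4.55 for all these genes. With regions of a −log10 q of at least 10 only, 6 members were lower and 1 higher, against 51.9% and 15.5% of all genes, where 7 members kept a region in both lists. For H3K4me3, KAT2B and HDAC3 were lower and CREBBP and KAT2A higher, against 18.6% and 20.2% of 14047 genes, with median changes of 2.72 and 0.506 points. Ranked by fragments alone, 3 members were lower for H3K27ac (KAT2A, KAT2B and BRD2, where 31.1% of all genes were lower) and 0 higher (5.12%), and for H3K4me3 KAT2B was lower (13.2%) and CREBBP higher (15.6%). For BRD2 this rank set its second siCONT region, with 165 fragments, against its promoter region in siDLEU1 cells, with 99.

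**Figure D3:**
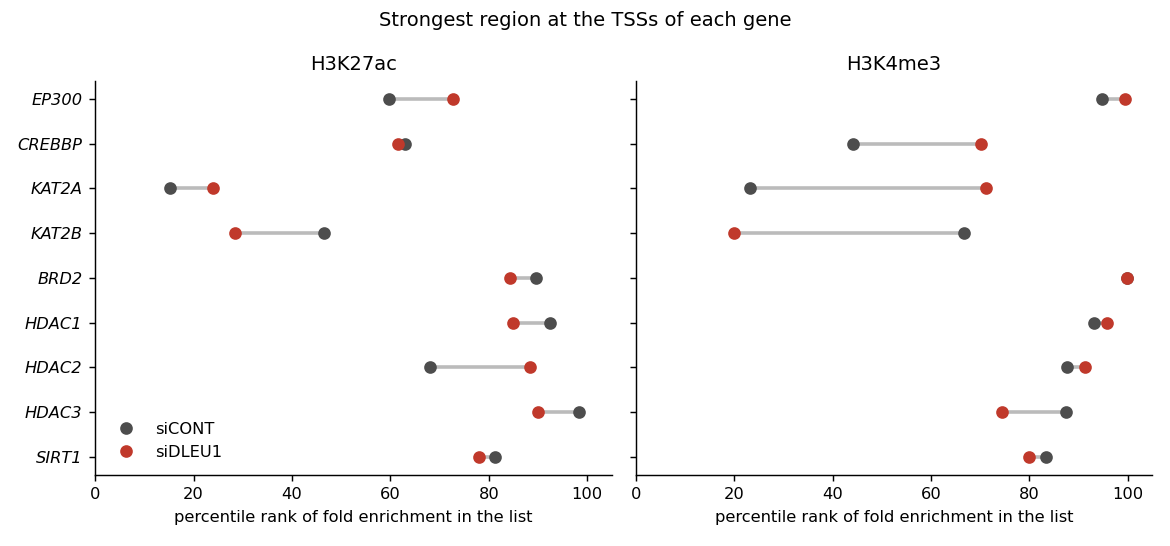
Percentile rank of fold enrichment of the strongest region at the TSSs of each gene within its list (0 to 100), in siCONT (grey) and siDLEU1 cells (red), for H3K27ac on the left and H3K4me3 on the right. The long lines belong to HDAC2 and KAT2B for H3K27ac, and to KAT2A (23.2 to 71.1), KAT2B (66.8 to 19.9) and CREBBP (44.1 to 70.2) for H3K4me3.

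EP300 and CREBBP, the paralogous writers of H3K27ac, were both lower in H3K27ac and higher in H3K4me3 FPM in siDLEU1 cells. KAT2A, BRD2, HDAC1 and HDAC2 had the same directions. Of all genes 99.1% were lower in H3K27ac FPM, and 9543 of 13223 were higher in H3K4me3 FPM. EP300 lies at chr22:41488596-41576081 on the plus strand of hg19 and has 31 exons. At its start, a single H3K27ac region ran from -869 to 1212 bp from the TSS in siCONT cells, with 102 fragments at its summit, and in siDLEU1 cells 2 regions were called over the same stretch, with 77 and 60 fragments. Its FPM were 4.75 (95% interval 3.87 to 5.77) and 2.62 (2.07 to 3.27), a ratio of 0.551. These summits lie at different places, -676 and 126 bp from the TSS, and the siDLEU1 summit near the first, at -667 bp, had 60 fragments or 2.04 FPM. The H3K27ac rank of EP300 rose from 59.7 to 72.8 by fold enrichment and fell by 8.49 points by fragments. The local background of its summit, in control fragments expected there, was 1.0 in the siCONT list and 0.439 in the siDLEU1 list.

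The H3K4me3 at EP300 was among the strongest in both lists, at percentiles 94.7 and 99.5. Its 2 H3K4me3 regions in siCONT cells, upstream and over exon 1, were joined into 1 region of 1806 bp in siDLEU1 cells. Summit fragments went from 168 to 176, or 5.91 to 7.89 FPM, a ratio of 1.33 (1.07 to 1.66) that was 1.15 times the median gene (0.924 to 1.43).

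CREBBP, at chr16:3775055-3930714 on the minus strand, carried H3K27ac on both sides of a TSS that no region covered. The downstream region, over the end of exon 1 and intron 1, had 80 fragments in siCONT cells and 66 in siDLEU1 cells, and the upstream one 57 and 48. The 2 ratios, 0.603 and 0.615, were close to each other and to the median gene. The gap over the TSS measured 874 bp in siCONT cells and 955 bp in siDLEU1 cells.

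H3K4me3 at CREBBP was found upstream only, from -757 to -288 bp in siCONT cells and from -673 to -149 bp in siDLEU1 cells. Its summit held 35 fragments in siCONT cells and 51 in siDLEU1 cells, or 1.23 (0.857 to 1.71) and 2.29 (1.7 to 3.0) FPM. The ratio of 1.86 (1.18 to 2.94) was 1.6 times that of the median gene (1.02 to 2.53), and 3.96% of all genes had a ratio at or above it. The percentile rank rose from 44.1 to 70.2, and by fragments from 32.0 to 61.3. Local background was 0.532 in the siCONT list and 0.463 in the siDLEU1 list, the genome-wide level of each. Of the 9 genes CREBBP had the largest rise in H3K4me3, as a ratio of FPM and in rank by fragments, while its H3K27ac ratio was near the median gene.

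KAT2A and KAT2B, the GCN5 and PCAF acetyltransferases, moved in opposite directions in H3K4me3 rank. They lie at chr17:40265129-40273385 on the minus strand and chr3:20081938-20195896 on the plus strand. By strongest region, KAT2A had the lowest H3K27ac FPM of the 9 genes, with intervals that overlapped those of KAT2B. Its single region over exon 1 measured 455 bp in siCONT cells and 446 bp in siDLEU1 cells, with 54 and 39 fragments. These correspond to 2.51 (1.89 to 3.28) and 1.33 (0.943 to 1.81) FPM. In siCONT cells the region began at -18 bp and covered the TSS, and in siDLEU1 cells it began 19 bp downstream. Its rank went from 15.1 to 23.9 by fold enrichment but fell by 19.3 points by fragments.

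For H3K4me3, the rank of the KAT2A promoter went from 23.2 to 71.1, the largest rise of the 9 genes. The fragments at the summit hardly differed, 54 in siCONT cells and 53 in siDLEU1 cells, or 1.9 and 2.37 FPM (ratio 1.25, interval 0.84 to 1.86). Local background was 2.0 control fragments in the siCONT list and 0.484 in the siDLEU1 list, and the rank by fragments moved by 6.18 points. The same difference of background, 2.0 and 0.51, lay under its H3K27ac region. With TSS windows of 3 or 5 kb its H3K4me3 rank changed by -15.2 points, and with regions within 1 kb stitched by -19.2 points. A second H3K4me3 region of KAT2A, in exon 18 and shared with DHX58, had 27 fragments in siCONT cells and was not called in siDLEU1 cells.

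KAT2B was lower in both marks by rank, by fragments and by width. H3K27ac flanked its TSS, with 55 fragments upstream and 58 downstream in siCONT cells, against 30 and 40 in siDLEU1 cells. The ratios were 0.398 (0.246 to 0.633) upstream and 0.504 (0.328 to 0.767) downstream. Relative to the median gene they were 0.688 (0.426 to 1.09) and 0.87 (0.567 to 1.32), and both intervals include 1. Lower H3K27ac FPM was found at 99.1% of all genes and a lower summed width at 93.6%. The summed width of the regions fell from 1599 to 771 bp, and the gap over the TSS widened from 367 to 556 bp. The H3K27ac rank went from 46.5 to 28.5.

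H3K4me3 at KAT2B had the same layout. Upstream, 55 fragments in siCONT cells and 25 in siDLEU1 cells gave a ratio of 0.579 (0.346 to 0.945), and downstream 53 and 21 gave 0.505 (0.289 to 0.851). Set against the median gene these were 0.499 (0.298 to 0.815) and 0.435 (0.249 to 0.734). The strongest region was the upstream one in siCONT cells and the downstream one in siDLEU1 cells, and by these strongest regions 0.552% of all genes had a ratio as low as that of KAT2B, 0.487. By the region with most fragments in each list, a choice made after seeing the data, the ratio was 0.579 and the share 1.13%. Local background at the strongest region was 0.532 and 0.463. The summed width went from 1065 to 519 bp and the gap over the TSS from 394 to 677 bp. The percentile rank fell by 46.9 points, from 66.8 to 19.9, and both flanks moved the same way.

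**Figure D4:**
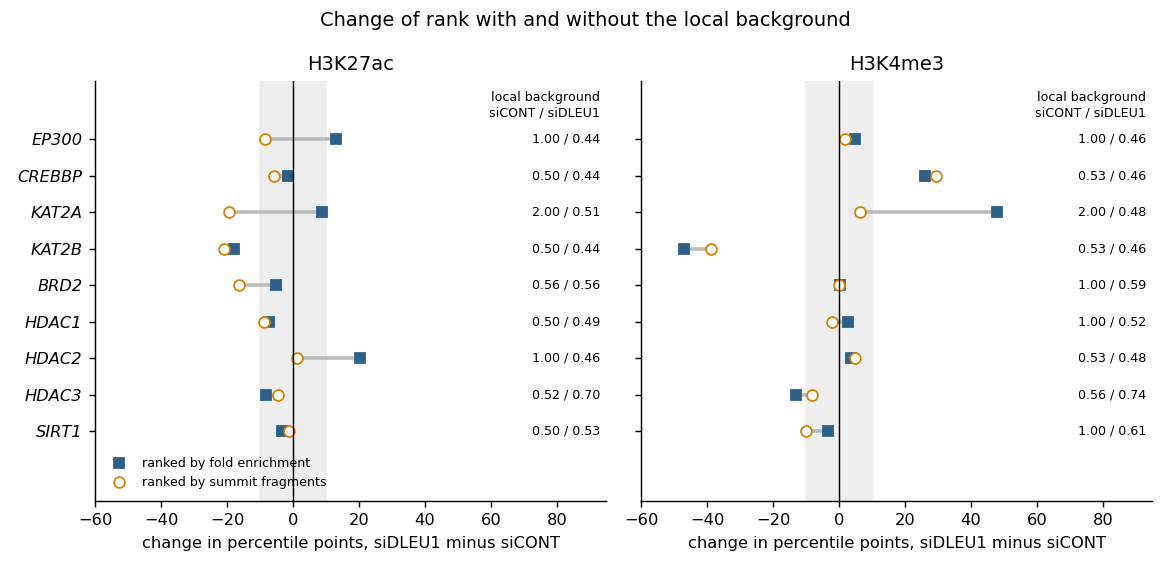
Change in percentile rank (siDLEU1 minus siCONT, in points) of the strongest region at each gene when ranked by fold enrichment (filled squares) or by summit fragments (open circles), with the local background in control fragments printed at the right; the grey band spans 10 points on either side of 0. Squares and circles part most at EP300, KAT2A and HDAC2 for H3K27ac and at KAT2A for H3K4me3, where the local background of siCONT cells is 1.0 or 2.0. They part less at BRD2 for H3K27ac, where the circle takes another siCONT region, with 165 fragments and a background of 2.0. The printed background is that of the region strongest in fold enrichment. Squares and circles lie on the same side of the band at KAT2B and, for H3K4me3, at CREBBP.

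BRD2, the BET reader at chr6:32936371-32949282 on the plus strand, had the broadest domain of the 9 genes. In siCONT cells an H3K27ac region of 3899 bp covered its promoter, exon 1 and intron 1, and a second of 2784 bp covered exons 2 and 3. The first was called as 3 regions in siDLEU1 cells. Its strongest region had 129 fragments and then 99, or 6.01 (5.01 to 7.14) and 3.37 (2.74 to 4.1) FPM, a ratio of 0.561. The summits behind this ratio lay at -341 bp in siCONT cells and 894 bp in siDLEU1 cells. The second held more fragments in siCONT cells, 165 at its summit, and 98 in siDLEU1 cells. Its ratio of 0.434 (0.334 to 0.56) was 0.749 times the median gene (0.578 to 0.968), the only one of 14 H3K27ac stretches present in both lists with an interval wholly below the median gene. Local background there was 2.0 and 0.704.

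H3K4me3 at BRD2 ranked at 99.8 and 99.9 in the 2 lists, with 282 and 230 fragments. The ratio was 1.04 (0.869 to 1.24), and the promoter region kept its width, 4344 and 4146 bp. This ratio compares summits at 1838 bp in siCONT cells and 912 bp in siDLEU1 cells. The promoter regions of BRD2 also overlap a TSS window of HLA-DMA, so they cannot be assigned to BRD2 alone.

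HDAC1, a class I deacetylase at chr1:32757684-32799236 on the plus strand, had 131 fragments in siCONT cells and 95 in siDLEU1 cells over exon 1 and intron 1, or 6.1 (5.1 to 7.24) and 3.23 (2.61 to 3.95) FPM. A second region upstream, from -541 to -203 bp, with 35 fragments, was called in siCONT cells only. The rank of HDAC1 went from 92.4 to 85.0. For H3K4me3, 3 regions around the start of HDAC1 in siCONT cells became 1 region of 2112 bp in siDLEU1 cells, with 155 and 125 fragments and a ratio of 1.03 (0.805 to 1.31). The summits behind this ratio lay on opposite sides of the TSS, at -332 bp in siCONT cells and 218 bp in siDLEU1 cells. The siCONT region with its summit at 252 bp held 113 fragments or 3.97 FPM, against 5.6 FPM at 218 bp in siDLEU1 cells. The gap of 118 bp over the HDAC1 TSS was closed. A further H3K4me3 region near the 3′ end, from intron 11 to exon 14 of the 14 exons, went from 1145 to 204 bp and from 42 to 27 fragments.

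HDAC2, at chr6:114254192-114332472 on the minus strand, had the largest rise in H3K27ac rank, from 68.1 to 88.3. Its single region held 117 fragments in siCONT cells and 98 in siDLEU1 cells, or 5.45 (4.51 to 6.53) and 3.33 (2.71 to 4.06) FPM. The ratio of 0.612 (0.463 to 0.807) was 1.06 times the median gene (0.799 to 1.39), and 36.1% of genes had one at or above it. This ratio compares summits at 571 bp in siCONT cells and 127 bp in siDLEU1 cells. Local background was 1.0 in the siCONT list and 0.458 in the siDLEU1 list, and the rank by fragments moved by 1.22 points. H3K4me3 stood at 87.6 and 91.3, with 96 and 98 fragments. The region spans the start of the antisense RNA HDAC2-AS2 as well, and the lists do not tell the pair apart.

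Of the 12256 genes with a region in all 4 lists, HDAC2-AS2, GPS2 and PLPP6 came nearest to HDAC2 in the 4 percentile ranks. HDAC2-AS2 has the same regions and a mean absolute difference of 0.0 points. GPS2, a subunit of the HDAC3 corepressor complex, differed by 1.15 points on average and PLPP6, a lipid phosphatase, by 1.23. This likeness is over 4 ranks, 1 for each list.

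HDAC3, at chr5:141000443-141016416 on the minus strand, had an H3K27ac region with 164 fragments (7.64 FPM, 6.51 to 8.9) in siCONT cells and 119 (4.05, 3.35 to 4.84) in siDLEU1 cells. The single region of 1945 bp in siCONT cells was called as 2 in siDLEU1 cells, where a gap of 148 bp opened over the TSS. Its rank went from 98.3 to 90.0. The promoter is shared with RELL2, which is transcribed the other way, and its regions overlap the TSS windows of both genes.

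At HDAC3 the H3K4me3 ratios of the 2 flanks lay on either side of 1. Downstream, over exons 1 and 2, fragments went from 97 to 68 (ratio 0.893, 0.645 to 1.23), and on the RELL2 side they went from 40 to 50 (1.59, 1.03 to 2.48). The rank of the strongest region, the downstream one, fell by 13.0 points, from 87.4 to 74.4, and by fragments fell by 8.25 points, with a local background of 0.56 and 0.744. The region on the RELL2 side widened from 359 to 963 bp. The intervals of the 2 ratios overlap. Relative to the median gene the ratios were 0.77 (0.556 to 1.06) downstream and 1.37 (0.888 to 2.14) on the RELL2 side, and both intervals include 1.

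SIRT1, the NAD-dependent deacetylase at chr10:69644414-69678147 on the plus strand, had 3 H3K27ac regions in each list. The strongest, over exon 1 and intron 1, held 107 and 88 fragments, or 4.98 (4.08 to 6.02) and 2.99 (2.4 to 3.69) FPM. The upstream region had 40 in both lists, a ratio of 0.73 (0.459 to 1.16), and the one in intron 1 had 53 and 35 (0.482, 0.305 to 0.753). The gap between the upstream and the exon 1 region ran from -149 to -29 bp in siCONT cells and from -189 to 32 bp in siDLEU1 cells, and both E-boxes of the promoter lie in it in each list.

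In summit FPM, H3K4me3 was lower on the upstream side of the SIRT1 start and higher on the downstream side. The upstream region fell from 111 to 54 fragments, 3.9 to 2.42 FPM, a ratio of 0.62 (0.439 to 0.866). Over exon 1 and intron 1, 65 fragments became 73, 2.29 and 3.27 FPM, a ratio of 1.43 (1.01 to 2.03). This downstream ratio compares different places, with summits at 685 bp in siCONT cells and 135 bp in siDLEU1 cells. The intervals of the upstream and downstream ratios do not overlap. Relative to the median gene the ratios were 0.534 (0.379 to 0.746) and 1.23 (0.871 to 1.75), and the downstream interval includes 1. The strongest region was therefore the upstream one in siCONT cells and the downstream one in siDLEU1 cells, while the rank of the gene was 83.4 and 80.0. A small region in intron 1 with 26 fragments was called in siCONT cells only.

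Across the 9 genes, regions that overlapped between lists formed 15 H3K27ac stretches, 14 in both lists and 1 in siCONT cells only. In 3 of them (EP300, BRD2 and HDAC3) 1 region of siCONT cells was split in siDLEU1 cells, and in 0 were regions joined. Of the 12825 genes with H3K27ac regions in both lists, 18.8% had a split stretch, 0.569% a joined one and 14.2% one in siCONT cells only. All 14 were narrower in siDLEU1 cells and had a fragment ratio between 0.398 and 0.73. For H3K4me3 there were 16 stretches, 14 in both lists and 2 in siCONT cells only, with 0 split and 2 joined (EP300 and HDAC1). Of 13223 genes 8.18% had a split stretch, 12.6% a joined one and 16.6% one in siCONT cells only. Of the 14, 6 were lower in FPM and 8 higher, and 12 were narrower.

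The summed width of H3K27ac at the TSSs was lower at 9 of 9 genes, where 93.6% of all genes with regions in both lists were lower, with a median width ratio of 0.726 against 0.785. For H3K4me3 it was lower at 7 of 9 (68.7% of all genes), with 0.824 against 0.91. An H3K27ac region covered the canonical TSS of 7 members in siCONT cells and of 3 in siDLEU1 cells (EP300, BRD2 and HDAC2). Over all genes with a region the share went from 69.8% to 48.0%. The H3K4me3 of 5 members in siCONT cells and 6 in siDLEU1 cells covered the TSS, and over all genes the share rose from 53.2% to 60.7%.

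A wider list of 103 genes of histone acetylation, not counting the 9, gave the setting. Of the 103, 100 had an H3K27ac region in either list and 100 an H3K4me3 region. For H3K27ac 31 of 100 were lower by at least 10 points and 20 higher, against 36.8% and 16.8% of all genes, with a median change of -4.03 points. The fragment ratio had a median of 0.579, the same as all genes. For H3K4me3, 9 of 100 were lower and 17 higher, against 18.6% and 20.2%, with a median change of 0.8 points.

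By role, the H3K27ac rank of 13 of 27 subunits of deacetylase complexes was lower and of 5 higher, with a median change of -8.29 points, and by fragments 9 were lower and 6 higher. Of 20 subunits of writer complexes 8 were lower and 2 higher, and 7 and 0 by fragments. Of 24 readers with a region 4 were lower and 7 higher by fold enrichment, and 7 lower and 1 higher by fragments, so that the balance turned with the measure. Among the 15 other writers 2 were lower and 3 higher, and 4 and 0 by fragments, and among the 14 other erasers 4 and 3, and 4 and 2 by fragments. By fragments 31.1% of all genes were lower and 5.12% higher.

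The H3K4me3 rank of 0 of 15 writers was lower and of 4 higher, and by fragments of 1 and 3. Of 14 erasers 1 was lower and 5 higher, but by fragments 3 and 3. Of 20 subunits of writer complexes 2 were lower and 4 higher (3 and 5 by fragments), of 25 readers 3 and 2 (0 and 3), and of 26 subunits of deacetylase complexes 3 and 2 (also 3 and 2). These stand beside 18.6% and 20.2% of all genes by fold enrichment, and 13.2% and 15.6% by fragments.

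Large falls in H3K27ac rank on this list were at TADA2B, an adaptor of the SAGA complex (94.0 to 48.0), and BRD7, a bromodomain subunit of a SWI/SNF complex (82.5 to 44.5). The largest rises were at ING4, a PHD finger subunit of a writer complex (31.0 to 74.4), HDAC10 (39.4 to 77.2) and KAT5, the TIP60 acetyltransferase (53.9 to 91.4). At TADA2B the fragment ratio was 0.634 and local background went from 0.497 to 2.0, and at ING4 the ratio was 0.526 and background went from 3.0 to 0.458. By fragments both ranks moved the other way, with TADA2B higher by 3.55 points and ING4 lower by 11.5. At BRD7 the ratio was 0.496, background went from 0.497 to 1.0 and the rank by fragments fell by 16.4 points. At KAT5 the ratio was 0.666, background went from 1.68 to 0.581 and the rank by fragments rose by 6.5 points. HDAC10 had the ratio nearest to 1 of these genes, 0.905, at a background of 1.0 and 0.458. Its rank by fragments rose by 20.6 points. TBL1X and MBD2, with 24 and 32 fragments in siCONT cells, had no H3K27ac region in siDLEU1 cells.

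For H3K4me3 the largest falls were at SAP30, a subunit of the SIN3 complex (76.1 to 21.7), SIRT4 (40.1 to no region) and TADA2B (90.6 to 62.5). At TADA2B the ratio of FPM was 1.08, the rank by fragments fell by 0.948 points and local background went from 0.532 to 2.0. SAP30 went from 69 to 23 fragments with a ratio of 0.425 at a background of 0.532 and 0.558, between regions that do not overlap. Rises were largest at SIRT7, a nuclear deacetylase (43.3 to 78.6), MLLT1, a YEATS domain reader (38.1 to 73.3), and ING4 (3.97 to 33.9). SIRT7 was higher in fragments as well, 46 and 65, a ratio of 1.8 at a background of 1.0 and 0.502, whereas MLLT1 and ING4 had ratios of 1.06 and 0.85 and a siCONT background of 2.0 and 3.0. By fragments the rank of SIRT7 rose by 23.4 points, and those of MLLT1 and ING4 fell by 1.44 and 14.0. BRDT, a testis-specific reader, and CECR2 had no region of either mark.

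**Figure D5:**
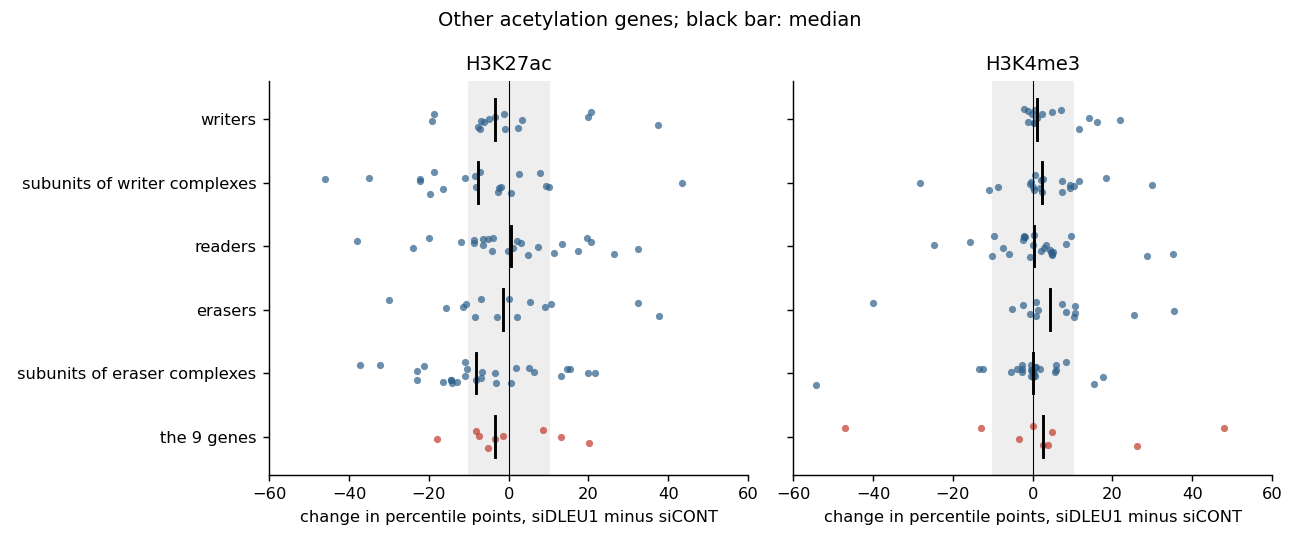
Change in percentile rank (siDLEU1 minus siCONT, in points) of every gene of the wider list with a region in either list, by role, and of the 9 genes in red; black bars are medians and the grey band spans 10 points on either side of 0. Ranked by fold enrichment, as drawn, subunits of deacetylase complexes have the lowest H3K27ac median, -8.29 points, and all H3K4me3 medians lie between 0.0279 and 4.37 points. Ranked by fragments, the H3K27ac median of this group is -3.86 points and that of subunits of writer complexes is lower, at -5.69. The median H3K27ac ratio of FPM of subunits of deacetylase complexes is 0.598, against 0.579 for all genes.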

How the data were processed

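H3K27ac and H3K4me3 were profiled in HSC3 cells, with 1 library for each siRNA and mark; 2 input libraries were not analysed here. Reads from an Ion Proton were aligned by the authors to hg19 (bowtie2), and MACS2 peaks were called per library. Settings and the control used are not given in the sources used here. MACS2 gave each deposited peak a fold ratio over local background, a −log10 p and a −log10 q. A display score was also deposited, which played no part. The largest q was 0.0486.

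Members and gene lists were chosen with earlier results of these data known. All 9 members are named, with the 3 largest falls and rises per mark of the wider list, its genes found in 1 list of a mark, genes sharing a region, and the 3 genes nearest to the member with the largest H3K27ac change. A gene that this rule names is not reported here. TSSs were taken from GENCODE release 44 on GRCh37, for genes with a curated RefSeq transcript on chromosomes 1 to 22 and X, and any overlap of at least 1 bp with a window was counted.

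Summit fragments n were recovered by matching n and a local background to each fold enrichment and p, which returned 100.0% of p-values within 0.005 on the −log10 scale. Depth assumes a mappable genome of 2.7 Gb, which scales fragments per 1000000 reads (FPM) in all lists alike, and the shortest region as the fragment length (176 to 200 bp). Recovery was tested on simulated data. Intervals are exact (Poisson for numbers, conditional binomial for ratios). Promoters hold no N and were read from GRCh37. Python 3.11.15, numpy 2.4.6, pandas 2.3.3, scipy 1.17.1 and matplotlib 3.10.9 were used. Alternatives are given in the closing section.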

Additional observations from a re-analysis of the deposited data

How the results depend on the processing

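No paired analysis was possible because each siRNA and mark has 1 library and the labels carry no replicate numbers, and for the same reason none was left out. All 9 members had regions in both lists of both marks under the alternatives run, except with the stricter q threshold described next, under which 7 did for H3K27ac and 6 for H3K4me3. The cause of the movements below was not tested.

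For H3K27ac the median change in rank over the members was -3.33 points, with 1 member lower and 2 higher (36.8% and 16.8% of all genes). The covered width in siDLEU1 cells was 0.765 times that in siCONT cells. With regions of a −log10 q of at least 10 these became -11.2 points, 6, 1 and 0.701, against 51.9% of all genes lower and 15.5% higher. With regions within 1 kb stitched the median was -5.39, with 3 lower and a width ratio of 0.856, and with equal numbers of regions it was -1.18 with 3 higher. Of all genes 41.0% were lower when stitched, and 23.4% were higher with equal numbers. TSS windows of 3 and 5 kb both gave -5.27 and 2 lower, with width ratios of 0.748 and 0.724, and 1 TSS per gene gave a width ratio of 0.75. In both windows 36.5% of all genes were lower. Ranks by −log10 p gave -3.54 and 1 higher, ranks by summit fragments -8.49, 3 lower and 0 higher, and the widest region per gene 3 lower. Of all genes 12.5% were higher by −log10 p and 39.1% lower by widest region. By fragments 31.1% were lower and 5.12% higher. The median fragment ratio of 0.551 was 0.952 on the scale of the median gene, and 0.53 by the region with most fragments, an alternative chosen after seeing the data.

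For H3K4me3 the median change was 2.72 points, with 2 lower, 2 higher (18.6% and 20.2% of all genes) and a width ratio of 0.873. At a −log10 q of at least 10 it was 6.92 with 4 higher, and the width ratio turned to 1.01. Of all genes 35.9% were then higher. CREBBP and KAT2A, among these 4, had no siCONT region at that threshold and were ranked at 0 there. Stitching gave 0.219, 3 lower, 1 higher and 0.871, equal numbers 2.92, and windows of 3 and 5 kb 0.129, 3 lower and 1 higher, with width ratios of 0.838 and 0.821. When stitched, 21.3% of all genes were lower and 24.6% higher. In the windows of 3 and 5 kb 18.5% and 18.2% were lower, and 20.4% were higher in each. The width ratio with 1 TSS per gene was 0.958. Ranks by −log10 p gave a median of 0.43, by fragments -0.149 with 1 lower and 1 higher, and by widest region 5.17 with 3 higher. By fragments 13.2% of all genes were lower and 15.6% higher, and by widest region 24.3% were higher. HDAC1, at 41.3 points, is among these 3. Its widest siCONT region is the one near the end of the gene, and its widest siDLEU1 region is at the promoter. The fragment ratio of 1.04 was 0.894 on the scale of the median gene.

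Of the genes with a change of at least 10 points, those that turned were EP300 for H3K27ac, at -8.49 points by fragments, and KAT2A for H3K4me3, at -19.2 when stitched and -15.2 with windows of 3 or 5 kb. Smaller changes turned at CREBBP (2 of 10 alternatives) and SIRT1 (1) for H3K27ac, and at BRD2 (2), HDAC1 (1) and SIRT1 (1) for H3K4me3. KAT2B kept its direction in 10 of 10 alternatives for both marks (-29.2 to -11.8 points for H3K27ac, -46.9 to -24.2 for H3K4me3), as did CREBBP for H3K4me3 (lowest 25.7) and HDAC2 for H3K27ac (1.22 to 24.4). Several of these alternatives pick the same regions and return the main value, so they are not independent checks. The KAT2B values of -29.2 and -24.2 come from the stricter q threshold, under which it kept no region in siDLEU1 cells. KAT2A turned in H3K27ac in 4 of 10, to -19.3 at the lowest. The summits of KAT2A and KAT2B, and the H3K4me3 summit of CREBBP, hold 21 to 58 fragments and have the widest intervals of the ratio, and a region missing from a list may lie just under its threshold.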
